A study of Bos taurus with 38 samples.

Results

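H2AC4 (ENSBTAG00000050614), H2AC7 (ENSBTAG00000053792) and H3C13 (ENSBTAG00000050881) are replication-dependent histone genes. They are 3 of the 27607 genes counted in single cattle oocytes and in the cumulus cells around each of them. The 3 genes were chosen by measured values, namely their co-expression in oocytes with cumulus genes within BCB positive complexes, in an earlier look at the same libraries. Those coefficients, and the difference of the 3 transcripts between oocytes and cumulus cells, are therefore given only as descriptions.

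The dye brilliant cresyl blue (BCB) loses its colour in oocytes with an active glucose-6-phosphate dehydrogenase, so oocytes that stay blue (BCB positive) are taken as fully grown and colourless oocytes (BCB negative) as still growing. All 19 complexes came from antral follicles of abattoir ovaries and were exposed to the dye, 9 were BCB positive and 10 BCB negative, and each gave 1 oocyte library and 1 cumulus library. No label gives the animal or its age, so complexes of one group may share an animal, and p-values then measure only the spread between complexes. Complex numbers form 3 runs, 6 to 24 (3 BCB positive and 1 BCB negative), 65 to 74 (6 and 3) and 86 to 91 (6 BCB negative), and what the runs stand for is not given in the sources used here.

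Histones are the proteins around which DNA is wound, and H2A and H3 are parts of the core of the nucleosome, which also holds H2B and H4. Replication-dependent histone genes lie in clusters and are copied into RNA mainly while DNA is replicated. Their mRNAs mostly lack a poly(A) tail and end in a stem-loop, to which stem-loop binding protein (SLBP) binds, whereas replacement histones are made throughout the cell cycle from mRNAs with tails. Oocytes are arrested in meiosis and store histone mRNA and protein for the early embryo. The libraries were primed with oligo-dT, so a histone mRNA was captured only where it carried a tail or another run of A, and tail length was not measured.

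H2AC4 and H2AC7 code for H2A proteins and H3C13 for an H3 protein. In the RefSeq annotation of cattle, H2AC4 lies between H2BC3 and H3C2, H2AC7 between H2BC7 and H1-12, and H3C13 between H4C14 and H2BC18, so each sits among other histone genes. Such genes are nearly alike in sequence, and low quality alignments were removed before counting. How many reads of one copy were lost or went to another is not known, and counts of single histone genes are uncertain for that reason. The libraries do not keep strand, so reads from overlapping or antisense genes cannot be told apart from those of the named gene.

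Oocyte libraries held 8886070 to 29810354 counts and cumulus libraries 1103200 to 10430148. Levels are CPM, counts scaled to a common library size, with one TMM scaling over all 38 libraries, which corrects for differences in composition. They are compared between libraries but not between genes, since gene lengths were not used here. Fewer transcripts per cell and fewer cells cannot be told apart in the cumulus libraries. Of 8 cumulus markers with an identifier, such as INHA, FST and GSTA1, the summed level was 8331 to 34186 CPM in cumulus cells and 46.8 to 3015 CPM in oocytes. The oocyte sum was at the median 0.700% of that of its own cumulus cells, and at most 8.82% (complex 72). The zona pellucida genes ZP2 and ZP3 had medians of 1625 and 1463 CPM in oocytes and of 0.163 and 0.360 CPM in cumulus cells. KIT, also on the oocyte list, had 243 CPM in oocytes and 53.2 CPM in cumulus cells, and the summed level of the 4 oocyte markers in cumulus cells was at most 5.62% of that in the oocyte (complex 65). FSHR and CYP11A1, both cumulus markers, had medians of 0.654 and 0.263 CPM in oocytes, and SERPINE2, a further one, had 78.6 CPM.

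H2AC4 was detected in all 19 oocytes, with 100 to 1500 counts per library. Among BCB positive oocytes it stood at 5.97, 8.40 and 9.20 CPM in complexes 17, 19 and 24. In complexes 69 to 74, in order, it stood at 21.5, 21.2, 42.8, 27.8, 15.96 and 21.9 CPM. The oocytes of the lower complex numbers were thus all below the 6 others of the same BCB class. Among BCB negative oocytes it stood at 8.56 CPM in complex 6, and at 38.01, 33.1 and 25.4 CPM in complexes 65, 66 and 68. In complexes 86 to 91, in order, it stood at 20.03, 41.9, 34.1, 36.6, 35.2 and 51.2 CPM. Only complex 6 lay near the low BCB positive oocytes, and from there on the classes overlapped.

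H3C13 also had at least 81 counts in every oocyte. BCB positive oocytes held 4.93, 6.80 and 10.1 CPM in complexes 17, 19 and 24, and 16.5, 9.73, 21.7, 15.9, 12.2 and 11.5 CPM in complexes 69 to 74. BCB negative oocytes held 6.66 CPM in complex 6, 11.2, 9.11 and 7.71 CPM in complexes 65, 66 and 68, and 6.87, 12.9, 13.2, 12.1, 12.02 and 12.02 CPM in complexes 86 to 91. Every BCB negative value fell inside the range of the BCB positive oocytes, which was 4.40-fold from lowest to highest against 1.98-fold in BCB negative oocytes. Without complexes 6 to 24 the ranges were 9.73 to 21.7 CPM in BCB positive and 6.87 to 13.2 CPM in BCB negative oocytes.

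H2AC7 had the fewest reads. Its oocyte counts ran from 7 (complex 17, exact 95% Poisson interval 2.81 to 14.4, counting error only) to 180 (complex 87, 155 to 208). The level was 0.402 to 3.09 CPM, with a median of 2.24, in BCB positive oocytes and 1.249 to 5.78 CPM, with a median of 2.45, in BCB negative oocytes. The groups overlapped between 1.249 and 3.09 CPM, and 12 of the 19 oocytes were above the 2 CPM that the filter on low values asked of at least 9 libraries, without TMM scaling. In cumulus cells 17 of 19 libraries were above it.

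**Figure D1:**
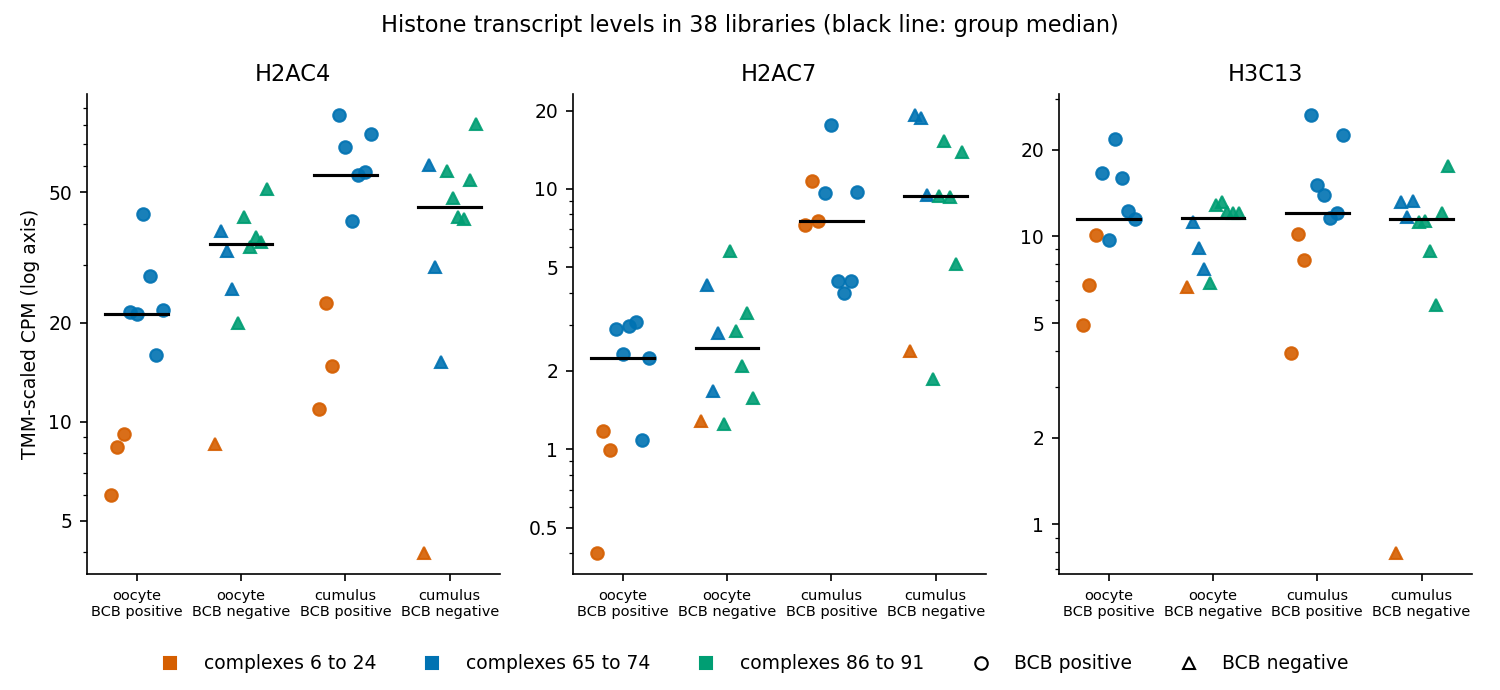
Level of H2AC4, H2AC7 and H3C13 in each of the 38 libraries, as TMM-scaled CPM on a log axis, by compartment and BCB class. Colour gives the run of complex numbers and the black line the group median. For H2AC4 the 4 oocytes of complexes 6 to 24 sit between 5.97 and 9.20 CPM, below the other 15, which start at 15.96 CPM.

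The spread of H2AC4 between oocytes was wide. The biological coefficient of variation, which is the spread left after counting error, was 46.5% within BCB classes, and genes of like abundance had 27.8%. It was higher in 7.61% of the 12753 genes kept in oocytes. On log2(CPM + 1) the SD of H2AC4 was 0.86 in all BCB positive and 0.69 in all BCB negative oocytes, and 0.46 and 0.38 without the 4 oocytes of complexes 6 to 24. H2AC7 had 49.8% (43.6% for genes of like abundance, 5.87% of genes higher) and H3C13 33.4% (35.8%, with 23.2% of genes higher). In cumulus cells the coefficients were 60.2% for H2AC4, 51.5% for H2AC7 and 45.7% for H3C13, where genes of like abundance had 30.5%, 43.8% and 40.3%.

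In cumulus cells the same transcripts were also present, so the label of an oocyte transcript describes only where they were noticed. H2AC4 ran from 10.9 to 85.6 CPM, with a median of 56.3, in BCB positive cumulus cells. In BCB negative cumulus cells it ran from 3.99 to 80.4 CPM, with a median of 45.0. H2AC7 had medians of 7.56 CPM (3.97 to 17.6) and 9.43 CPM (1.87 to 19.2), and H3C13 of 12.1 CPM (3.93 to 26.3) and 11.5 CPM (0.799 to 17.5), in BCB positive and BCB negative cumulus cells. The lowest value of H2AC4 and H3C13 was in complex 6, a library of 1772144 counts with 5 counts of H2AC4 and 1 of H3C13 (exact 95% Poisson intervals 1.62 to 11.7 and 0.0253 to 5.57). The classes overlapped for all 3 genes.

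Within a complex, H2AC7 was lower in the oocyte than in its cumulus cells in 19 of 19 complexes, by a median of 1.73 on the scale of log2(CPM + 1). H2AC4 was lower in the oocyte in 15 of 19 complexes, in 8 of 9 BCB positive and in 7 of 10 BCB negative complexes, with a median difference of -0.64. By class that median was -1.35 in BCB positive and -0.24 in BCB negative complexes. H3C13 was lower in 10 and higher in 9, with a median difference of -0.01 and a range from -0.91 to 2.09. In the fit over all 38 libraries the log2 difference, oocyte minus cumulus, was -2.03 ± 0.27 (SE) for H2AC7, -0.86 ± 0.28 for H2AC4 and -0.09 ± 0.21 for H3C13. These differences are not tested, since the genes were proposed for their oocyte transcripts, and that of H3C13 was above 0 with library totals alone (0.32), with DESeq2 (0.02), with its size factors (0.02) and without a filter (0.05). With library totals alone the difference of the median gene was 0.56, against 0.15 with TMM.

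**Figure D2:**
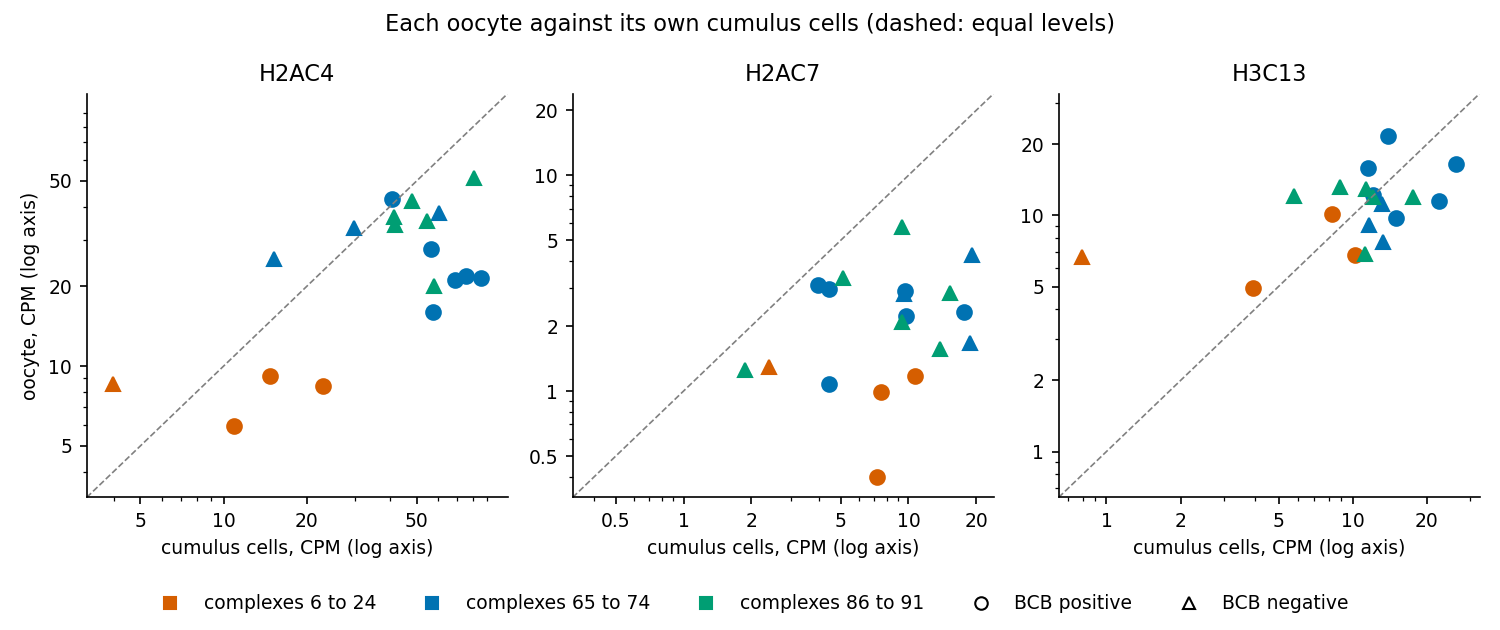
CPM of each transcript in an oocyte (vertical, log axis) against its own cumulus cells (horizontal, log axis) for the 19 complexes, with a dashed line of equal levels. All 19 points of H2AC7 lie below the line, 15 of 19 of H2AC4 do, and those of H3C13 lie on both sides.

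The level of the cumulus markers bears on how much of an oocyte value could be carried over from cumulus cells. Among these markers SERPINE2 had the highest median in oocytes, 78.6 CPM, and FST the next, 7.39 CPM. The share of a typical oocyte thus rests largely on SERPINE2, and whether oocytes make that transcript themselves was not tested. With the cumulus level of each complex multiplied by its marker share, the product was at the median 0.941% of the oocyte level for H2AC4, 2.89% for H2AC7 and 0.629% for H3C13. Its highest values were 17.9% for H2AC4 (complex 72), 18.6% for H2AC7 (complex 88) and 6.43% for H3C13 (complex 72).

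The other replication-dependent histones went in both directions between the compartments. Of 91 symbols on the list 21 genes have an identifier with a name, and 18 of them are not among the 3 chosen genes. H4C4 and H2BC5 passed the filter only through cumulus cells and H4C9 only through oocytes, so these 3 are left out of the counts. Of the other 15, which passed it in both compartments, 5 were higher and 9 lower in oocytes at an FDR under 0.01 by edgeR's quasi-likelihood test, with a median log2 difference of -1.02. Over the 10281 genes that passed it in both, 43.6% were higher and 41.1% lower, and the median was 0.06. H2BC18, an H2B gene, held 213 ± 50.4 CPM (SD, n = 19) in oocytes and 32.6 ± 10.9 CPM in cumulus cells, a log2 difference of 2.73 ± 0.14 (SE). H3C1, an H3 gene, was higher in oocytes by 1.67 ± 0.18, and the linker histone H1-2 was lower, at -1.63 ± 0.14.

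Genes that act on histone mRNA were measured beside them. Of 18 genes on the list of histone mRNA processing only 6 have an identifier with a name, and the others were not looked at. All 6 were kept. Of these 5 were higher in oocytes and 0 lower, where 43.6% of the genes kept in both were higher and 41.1% lower. SLBP held 314 ± 48.0 CPM in oocytes and 25.3 ± 13.2 CPM in cumulus cells, a log2 difference of 3.67 ± 0.17. CPSF2, a subunit of the cleavage complex, was higher by 1.03 ± 0.07. Of 24 genes on the list of poly(A) tail control 11 have an identifier with a name. YBX2, which passed the filter only through oocytes, is left out. Of the 10 kept in both 6 were higher and 2 lower against the same shares. Among the 10 were CPEB1, which binds the cytoplasmic polyadenylation element, at 3.58 ± 0.10, and the poly(A) binding protein PABPC1 at -2.47 ± 0.15.

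Of 13 replacement histones on the list, whose mRNAs carry tails, only 5 have an identifier with a name, and the others were not looked at. These 5 were all lower in oocytes (41.1% of the genes kept in both were). H3-3B had a log2 difference of -1.003 ± 0.144 and H2AZ1 one of -6.15 ± 0.44. Of 16 histone chaperones on the list 6 have an identifier with a name. Among these 4 were higher and 2 lower, where 43.6% and 41.1% of the genes kept in both were. NASP, which binds H3 and H4, was at 0.70 ± 0.10 and ASF1B at 4.64 ± 0.19. Of 21 genes of DNA replication on the list 8 have an identifier with a name. Among these 7 were higher and 0 lower against these shares. MCM4 was higher by 3.26 ± 0.14 and MCM3 by 2.57 ± 0.18, both subunits of the replicative helicase.

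**Figure D3:**
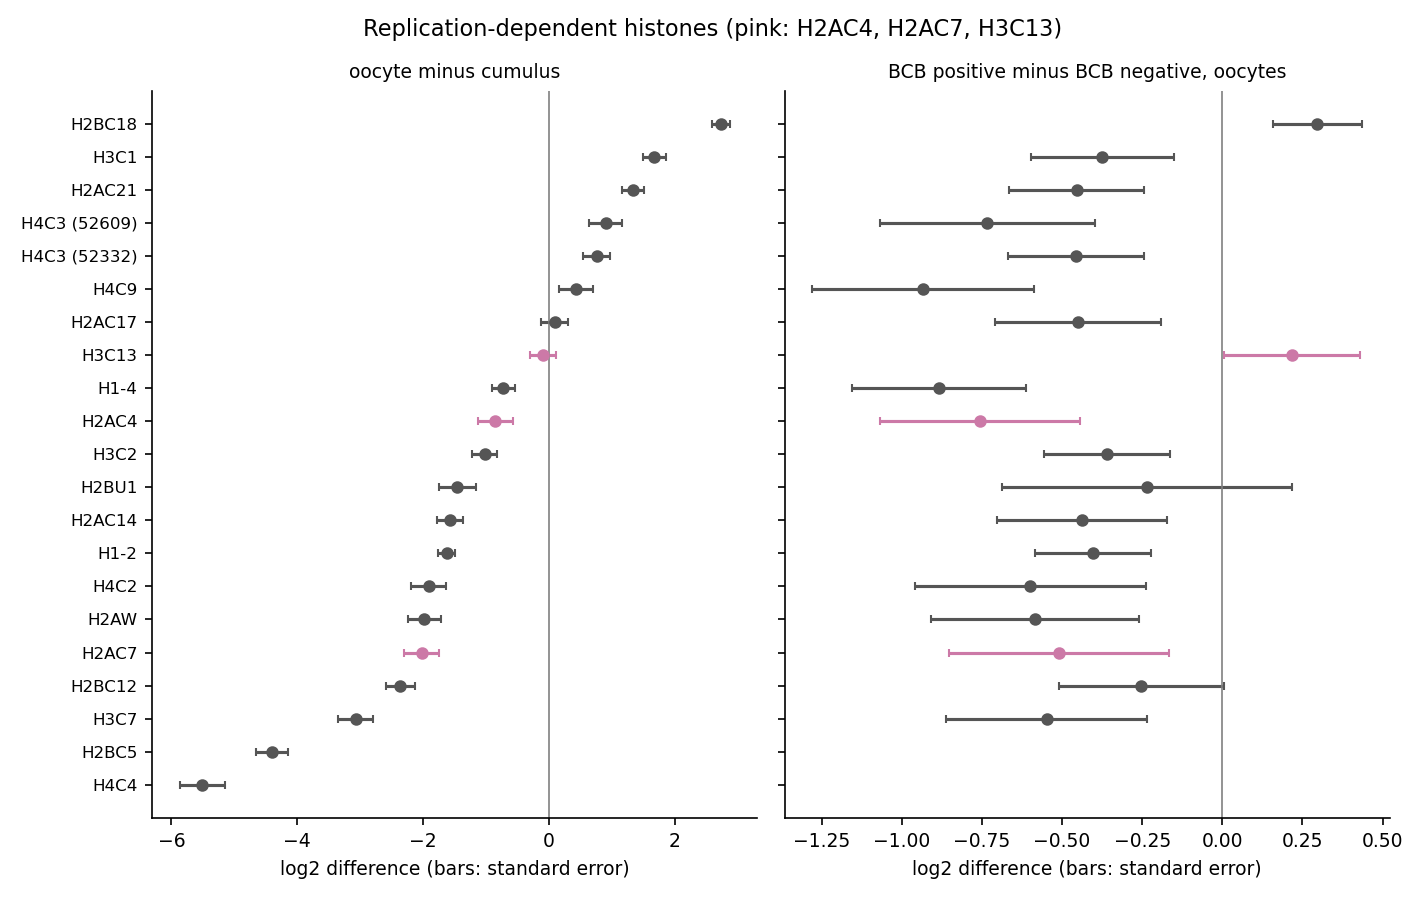
Log2 differences with standard errors for the 21 replication-dependent histone genes with a name, oocyte minus cumulus (left) and BCB positive minus BCB negative in oocytes (right, 19 genes that passed the filter), with H2AC4, H2AC7 and H3C13 in pink. On the left the values run from -5.51 (H4C4) to 2.73 (H2BC18), where H4C4 and H2BC5 passed the filter only through cumulus cells and H4C9 only through oocytes, and on the right 17 of 19 are below 0, none of them past the FDR threshold.

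Whether the transcripts differ with the growth of the oocyte was asked by comparing BCB classes. In oocytes H2AC4 was 19.4 ± 11.5 CPM (SD, n = 9) in BCB positive and 32.4 ± 11.9 CPM (n = 10) in BCB negative oocytes, a log2 fold of -0.75 ± 0.31 (SE) by edgeR, with an unadjusted p of 0.0246 and an FDR of 0.867. H2AC7 was 1.91 ± 1.01 and 2.69 ± 1.46 CPM, a log2 fold of -0.51 ± 0.34 with an FDR of 0.904 by edgeR. H3C13 was 12.2 ± 5.19 and 10.4 ± 2.54 CPM, a log2 fold of 0.22 ± 0.21 with an FDR of 0.930 by edgeR. Without complex 71, the highest BCB positive oocyte, it was 0.06, and without complex 87 that of H2AC7 was -0.32. None of the 3 passed the threshold of 0.01. The 9 BCB positive oocytes took part in choosing the genes, so the p-values of the BCB comparisons in oocytes are not independent of that choice. Of the 12753 genes tested 0% passed it with edgeR, while 711 (5.58%) had an unadjusted p under 0.05 and 1 passed with DESeq2.

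The H2AC4 difference was smaller in fits that took the run of complex numbers into account. Runs and BCB classes overlap in part, so their shares in the difference cannot be told apart. With the run as a covariate the log2 fold of H2AC4 was -0.39 ± 0.23. Within complexes 65 to 74 it was -0.47 ± 0.26, and without complexes 6 to 24 it was -0.50 ± 0.21. For H3C13 the same values were 0.41 ± 0.23, 0.53 ± 0.27 and 0.41 ± 0.19, so H2AC4 and H3C13 differed in sign in each of these fits and in the fit of all oocytes. Complexes 86 to 91 are all BCB negative and give no such value.

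Of the 19 replication-dependent histones kept in oocytes 17 had a log2 fold below 0, with a median of -0.45, whereas 51.4% of all genes were below 0. At an unadjusted p under 0.05, which 5.58% of all genes had in either direction, 7 had a fold below 0 and 1, H2BC18, a fold above 0, and 0 passed the FDR threshold. Symbols came in part from tables sorted by the BCB p in these libraries and held only in part, so this list is not independent evidence of a direction. The lowest p was that of the linker histone H1-4, with a log2 fold of -0.88 ± 0.27 and an FDR of 0.843 by edgeR, followed by H4C9 at -0.93 ± 0.35 with an FDR of 0.867. Without complexes 6 to 24, 15 of 19 were below 0 and 2 of them had an unadjusted p under 0.05. Leaving out single oocytes kept 17 of 19 below 0 each time, and moved the count of 7 to between 3 (without complex 17) and 11 (without complex 6).

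Neither did a gene of the other lists pass the threshold in oocytes. Their symbols come from the same tables, and of all genes 51.4% had a log2 fold below 0 and 5.58% an unadjusted p under 0.05. Of the histone mRNA processing genes 5 of 6 had a log2 fold below 0, 3 of them at an unadjusted p under 0.05, among which SLBP had -0.23 ± 0.10 and CPSF2 -0.20 ± 0.09. Poly(A) tail control had 6 of 11 below 0, with PAN3 at -0.28 ± 0.16 and CPEB2 at -0.39 ± 0.23. Of the replacement histones 1 of 5 was below 0, with H3-3B at -0.07 ± 0.10, CENPA at 0.01 ± 0.12 and H2AZ1 at 1.09 ± 0.66. H2AZ1 held 256 CPM in cumulus cells and 0.459 to 23.8 CPM in oocytes, and the summed level of the 8 cumulus markers in oocytes reached 3015 CPM in BCB positive and 739 CPM in BCB negative ones. Their part in the value of H2AZ1 was not tested. Of the chaperones 2 of 6 were below 0, NASP at -0.29 ± 0.13 and NAP1L1 at -0.39 ± 0.20. Of the DNA replication genes 6 of 8 were below 0, with CCNE1 at -0.23 ± 0.12 and MCM5 at 0.32 ± 0.13.

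In cumulus cells H2AC4 was 48.1 ± 27.2 CPM (SD, n = 9) around BCB positive and 43.3 ± 22.5 CPM (n = 10) around BCB negative oocytes. The log2 fold was 0.10 ± 0.40 (SE) for H2AC4 (FDR 0.916), -0.33 ± 0.37 for H2AC7 (FDR 0.660) and 0.39 ± 0.33 for H3C13 (FDR 0.550) by edgeR. Of all 12313 genes tested 0.56% passed the threshold, and 18.7% had an unadjusted p under 0.05. Among the 20 kept replication-dependent histones 0 passed and 1 had a fold below 0 at an unadjusted p under 0.05 by edgeR. A log2 fold below 0 was found for 7 of the 20, where 51.4% of all genes had one. That count was 13 without complex 74, 12 without complex 6 and 5 to 10 without each of the others, 12 with the log10 library total as a covariate and 2 with library totals alone, so it gives no direction for the list. In the other 5 lists 0 genes passed it as well.

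The cumulus values moved with scaling and with the runs. With library totals in place of TMM the median gene had a log2 fold of 0.46, against -0.01 with TMM, and H2AC7 was then at 0.15 ± 0.37 and H3C13 at 0.90 ± 0.33 (FDR 0.0335 by edgeR). Taken against that median, the value of H2AC7 was again below the typical gene. The log2 fold of H2AC4 was 0.95 ± 0.31 with the run as a covariate (FDR 0.0985 by edgeR), 0.77 ± 0.34 within complexes 65 to 74, and -0.51 ± 0.55 with the log10 library total as a covariate. It was also below 0 without complex 6, 69 or 74, and at its lowest -0.0426.

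Whether the BCB difference itself differed between oocytes and cumulus cells was tested as an interaction over 10281 genes, of which 0.525% passed an FDR under 0.01. The log2 fold of BCB in oocytes minus that in cumulus cells was -0.82 ± 0.52 (SE) for H2AC4 (FDR 0.556), -0.14 ± 0.50 for H2AC7 (FDR 0.954) and -0.15 ± 0.39 for H3C13 (FDR 0.927) by edgeR. In this fit, which does not pair an oocyte with its own cumulus cells, no such interaction was detectable for the 3 genes. Within complexes the mean H2AC4 difference, oocyte minus cumulus, was -1.20 (SD 0.67, n = 9) in BCB positive complexes. In BCB negative ones it was -0.23 (SD 0.70, n = 10). For H2AC7 these means were -1.65 and -1.47, and for H3C13 -0.12 and 0.13. They were not compared by a test, and the BCB positive oocytes took part in choosing the genes. With the complex as a replicate block, in limma, 3 genes in all passed in place of 54, and none of the 3 histones was among them.

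The oocytes were also split into complexes 6 to 24 and the rest, by the complex number in the labels, after the values of H2AC4 had been seen. All 4 oocytes of complexes 6 to 24 were below all 15 others, which held for 1.36% of all genes in oocytes. With BCB class as a covariate the log2 difference, complexes 6 to 24 minus the others, was -1.72 ± 0.25 for H2AC4, -1.33 ± 0.40 for H2AC7 and -0.85 ± 0.23 for H3C13. In cumulus cells it was -2.20 ± 0.33, -0.32 ± 0.49 and -1.43 ± 0.36, and none of the 3 genes had all 4 libraries below the others, which held for 0.268% of genes. Since 3 of these 4 complexes are among those whose co-expression chose the genes, the values carry no test.

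The same split is given for the other replication-dependent histones as a description with no test, since it was chosen on values of H2AC4 and some of these genes vary with H2AC4. All 16 kept ones outside the 3 had a log2 difference below 0 in oocytes, with a median of -0.78, where 51.8% of all genes were below 0 and the median of all genes was -0.01. All 4 oocytes lay below the 15 others for 6 of the 16, against 1.36% of all genes. Among these 6 were H2AC21, an H2A gene, at -1.04, and the H2B genes H2BC12 at -1.36 and H2BU1 at -2.35. Others were nearer 0, such as H2BC18 at -0.21 and H1-2 at -0.32. In cumulus cells 14 of 17 were below 0, with a median of -0.69, where 53.1% of all genes were, and for none of the 17 did all 4 libraries lie below the others. H3C7, an H3 gene, had -1.86 there and H4C4, an H4 gene, -1.05. What the run stands for was not tested.

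How the 3 transcripts relate to each other was tested in the 10 BCB negative oocytes, on log2(CPM + 1). The co-expression that chose the genes did not include these oocytes. Their levels did count in the filter on low values, so the test is not fully independent of the choice. H2AC4 and H3C13 had a Pearson's r of 0.83 (two-sided permutation p = 0.0006, 0.0018 adjusted over 3 pairs) and a Spearman's rho of 0.68 (permutation p = 0.0349, adjusted 0.0653). H2AC7 had an r of 0.50 with H2AC4 (permutation p = 0.136, adjusted 0.136, rho 0.55 with p = 0.106) and of 0.61 with H3C13 (permutation p = 0.0632, adjusted 0.0948, rho 0.66 with p = 0.0436). Complexes 6 and 86 hold the lowest values of H2AC4 and H3C13. Without these 2 the r of H2AC4 with H2AC7 was -0.0235, so that coefficient rests on them, while that of H2AC4 with H3C13 was 0.70 and no longer passed (n = 8, exact permutation p = 0.0602, rho 0.38). On residuals from the means of the runs, an alternative chosen after seeing the data, the r of H2AC4 with H3C13 was 0.86 (exact permutation within runs, p = 0.0225, adjusted 0.0674). Without complex 91, whose H2AC4 is high and H2AC7 low, the r of H2AC7 was 0.69 with H2AC4 (exact permutation p = 0.0285, adjusted 0.032) and 0.73 with H3C13 (exact permutation p = 0.032, adjusted 0.032). Within complexes 86 to 91 the r of H2AC4 with H3C13 was 0.84 (n = 6, exact permutation p = 0.114) with a rho of 0.09.

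In the other oocytes the coefficients are a description. The 6 BCB positive oocytes of complexes 69 to 74 had an r of 0.73 for H2AC4 with H2AC7, 0.77 for H2AC4 with H3C13 and 0.54 for H2AC7 with H3C13. Over the 15 oocytes outside complexes 6 to 24 the r was 0.46, 0.33 and 0.37. With complexes 6 to 24, over all 19 oocytes, it was 0.75, 0.68 and 0.64. In cumulus cells the same pairs had an r of 0.27, 0.83 and 0.39 over all 19 libraries and of -0.05, 0.46 and 0.11 over the 15 without complexes 6 to 24. Each oocyte and its own cumulus cells had an r of 0.66 for H2AC4, 0.26 for H2AC7 and 0.53 for H3C13 over all 19 complexes, and of -0.13, 0.23 and 0.16 over the 15. By class, with complexes 6 to 24 included, that of H2AC4 was 0.77 in BCB positive (n = 9) and 0.85 in BCB negative complexes (n = 10). Each of the 9 coefficients given with and without complexes 6 to 24 was higher with them, that of H2AC7 between oocyte and cumulus cells by the least.

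**Figure D4:**
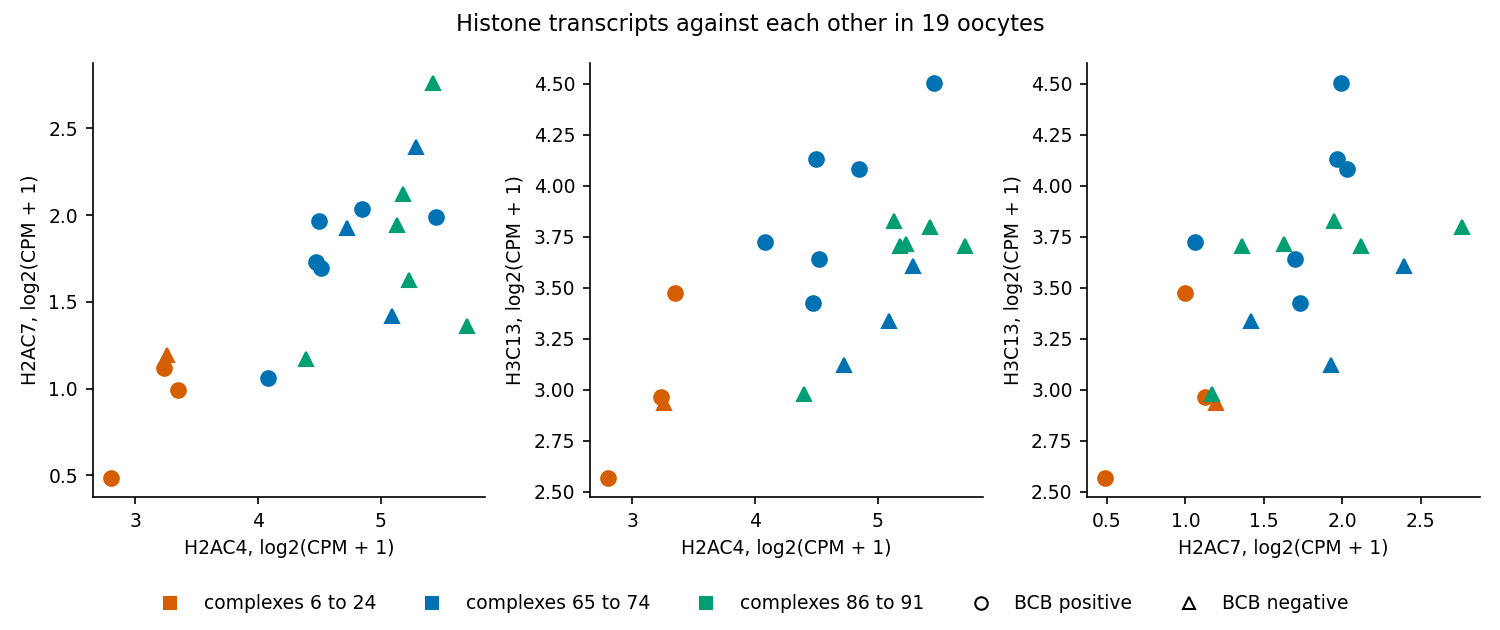
The 3 transcripts plotted against each other in 19 oocytes on log2(CPM + 1), with colour for the run of complex numbers and shape for the BCB class. The 4 oocytes of complexes 6 to 24 lie at the low end of H2AC4 in both panels that show it, apart from the 15 others.

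The genes most like each member over the 19 oocytes included other histones. For H2AC4 the highest coefficients among named genes were those of H2AC21 (r = 0.95), PDCD7 (0.91), a part of the minor spliceosome, and H2BC12 (0.90). Outside complexes 6 to 24 they were 0.82, 0.77 and 0.64. For H2AC7 the highest were H3C1 (0.82), the zinc transporter SLC30A9 (0.78) and asparagine synthetase ASNS (0.77). Outside complexes 6 to 24 they were 0.70, 0.73 and 0.59. For H3C13 the highest were H2BU1 (0.82) and the mitochondrial genes ND1 (0.81) and COX2 (0.79). Outside complexes 6 to 24 they were 0.67, 0.73 and 0.71, and in the BCB negative oocytes 0.79, 0.74 and 0.44. Among all kept genes H2AC7 was at place 133 and H3C13 at place 290 for H2AC4. For H2AC7, H2AC4 was at place 18 and H3C13 at place 236, and for H3C13, H2AC4 was at place 86 and H2AC7 at place 156.

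The coefficients that chose the genes were computed on counts divided by the TMM factor alone, without the library total, and transformed with the inverse hyperbolic sine. On this scale, within the 9 BCB positive complexes, H2AC4 in the oocyte reached a Pearson's r of at least 0.99 with 31 of 12313 cumulus genes, H3C13 with 9 and H2AC7 with 6. The coefficients just inside and just outside that limit were 0.9901 and 0.9896 for H2AC4, 0.9903 and 0.9895 for H2AC7, and 0.9904 and 0.9898 for H3C13. The first partners were ATP5F1D, a subunit of ATP synthase, TMEM9 and PPIB for H2AC4 (0.997, 0.996 and 0.996). They were BCL11A, HMG20B and TUBGCP3 for H2AC7 (each 0.993) and SPCS1, ATP1B1 and SQSTM1 for H3C13 (0.994, 0.994 and 0.992).

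Coefficients on this scale were high for the typical cumulus gene as well. The median r over all 12313 cumulus genes was 0.85 for H2AC4, 0.85 for H2AC7 and 0.83 for H3C13. In the same 9 complexes the 3 oocyte values on this scale had an r of 0.96, 0.95 and 0.94 with the cumulus library size (log10 of its count). In the 10 BCB negative complexes that r was 0.64, 0.61 and 0.83, and over all 19 complexes it was 0.18, 0.26 and 0.59. After scaling to the library total the median r was 0.05, 0.04 and 0.06, and 0 cumulus genes reached 0.99 with any of the 3. The 31 partners of H2AC4 then had coefficients from 0.17 to 0.85, the 6 of H2AC7 from 0.48 to 0.86 and the 9 of H3C13 from 0.46 to 0.77. In the 10 BCB negative complexes on the first scale the same partners had a median r of 0.61, 0.53 and 0.68, where the median of all cumulus genes was 0.55, 0.52 and 0.72.

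**Figure D5:**
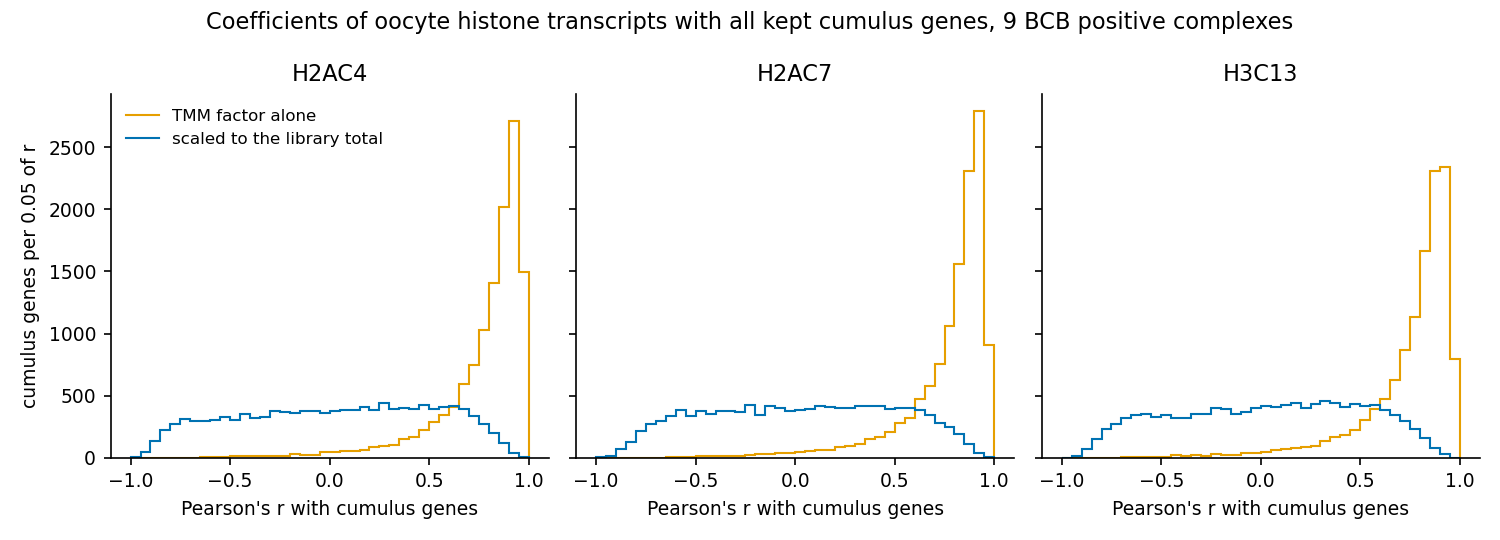
Number of cumulus genes at each Pearson's r with the oocyte transcript (bins of 0.05) over the 9 BCB positive complexes, with counts divided by the TMM factor alone (orange) and with values scaled to the library total (blue). The orange medians are 0.85, 0.85 and 0.83 and the blue medians 0.05, 0.04 and 0.06.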

How the data were processed

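RNA of 19 oocytes and their cumulus cells was reverse transcribed from an oligo-dT primer with template switching, amplified and tagmented. The authors aligned trimmed reads to ARS-UCD1.2 with HISAT2 2.1.0, removed low quality alignments and duplicates, and deposited raw counts per Ensembl gene from featureCounts 1.6.0, without normalization. Groups and complex numbers come from the labels. Symbols of 4934 genes came from supplementary tables, some of which are held only in part and sorted by the BCB test.

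Genes with a CPM above 2 in at least 9 libraries of a compartment were tested with edgeR 4.0.16 in R 4.3.3 (TMM, robust quasi-likelihood test, Benjamini-Hochberg FDR under 0.01). The standard error is the log2 fold divided by the root of F. DESeq2 1.42.0 and limma 3.58.1 served as alternatives. Relations used 100000 permutations, or all of them under 10 oocytes, in Python 3.11.15. Both kinds of test were checked on simulated data.

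The 3 genes, the gene lists and the tests were chosen with earlier results of these data known. Named are the 3 genes; the 5 replication-dependent histones with the highest oocyte level and the 5 with the lowest p in the oocyte BCB test; 2 of each kind from every other list; list genes past a threshold; and the closest genes and partners. H4C4, H2BC5, H3C7 and YBX2 were named after their values were seen. H4C3 stands for 2 identifiers and is not described singly. For the markers of immune and theca cells no identifier was matched. Of 3 endothelium markers 1 was matched, VWF, with medians of 39.7 CPM in oocytes and 2.02 CPM in cumulus cells. Its highest cumulus value was 34.2 CPM, in a BCB negative library. The complex number pairs an oocyte with its own cumulus cells. Across 10281 genes, the deviations of the 2 libraries of a complex from their group means had an r of -0.02 to 0.22 (median 0.08). Sequences are not shown, since no sequence tables were used here.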

Additional observations from a re-analysis of the deposited data

Results flagged for a closer look

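1 value stood apart from the rest of its group. H3C13 in the BCB negative cumulus cells was lowest in complex 6, at 0.799 CPM from 1 count, and the gap to the next of the 10 libraries was 0.568 of the whole range on log2(CPM + 1), above Dixon's 95% critical value of 0.466. This test flags about 1 in 20 groups by chance, and 12 groups of 9 or 10 libraries were looked at. H2AC4 of the oocyte of complex 6 had a gap of 0.464, just under that value. Without that cumulus library the log2 fold of H3C13, BCB positive minus BCB negative, was 0.26 in place of 0.39.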

How the results depend on the processing

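The log2 folds of H2AC4, H2AC7 and H3C13 between BCB classes stayed on the same side of the FDR threshold under every alternative that could be run, and in oocytes also kept their direction. A CPM above 2 in every library leaves no value for H2AC7 in oocytes, nor for H2AC7 and H3C13 in cumulus cells. Directions turned in cumulus cells for H2AC7 with library totals alone (0.15) and for H2AC4 with the log10 library total as a covariate (-0.51) and without complex 6, 69 or 74. Between compartments that of H3C13 turned with DESeq2 (0.0166), its size factors (0.0160), library totals alone (0.32) and no filter (0.0532). The cause was not tested.

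The number of all genes past the threshold was 1 in oocytes with DESeq2. In cumulus cells it was 69, and 365 with DESeq2, 1704 with library totals alone, 164 without a filter, 360 at an FDR under 0.05, 115 with the run and 2 with the log10 library total as a covariate, 169 within complexes 65 to 74 and 1 without complexes 6 to 24, an alternative chosen after seeing the data. Leaving out single libraries gave 6 to 160, and 17 of 19 libraries moved it by over 1.5 times. For the interaction the count was 666 with library totals alone and 3 with the replicate block, against 54. With the complex as a replicate block 13014 genes differed between compartments, against 13098. The difference of the 3 histones between compartments carries no test, and with the block it kept its direction (-0.77 for H2AC4, -2.01 for H2AC7 and -0.02 for H3C13). In the interaction the block changed no call of the 3 histones.

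Leaving out single libraries gave log2 folds of -0.998 to -0.64 for H2AC4, -0.62 to -0.32 for H2AC7 and 0.06 to 0.32 for H3C13 in oocytes, and of -0.0426 to 0.23, -0.55 to -0.21 and 0.21 to 0.50 in cumulus cells. For the relations in BCB negative oocytes it gave an r of 0.35 to 0.69 for H2AC4 with H2AC7, 0.82 to 0.86 for H2AC4 with H3C13 and 0.51 to 0.73 for H2AC7 with H3C13. With the TMM factor alone and the inverse hyperbolic sine H2AC7 reached an adjusted p under 0.05 with H2AC4 (0.71) and with H3C13 (0.77). H2AC4 with H3C13 no longer reached it within complexes 86 to 91 (0.84), without the 2 oocytes farthest from the median (0.70) and on residuals from run means (0.86, chosen after seeing the data). H2AC4 with H2AC7 turned to -0.0235 without the 2 farthest oocytes. Depth limits H2AC7 most in oocytes, with 7 counts in 1 of them. In cumulus cells H2AC7 had 3 counts in complex 6 and 3 in complex 86. Depth limits all 3 genes in the cumulus cells of complexes 6 and 68. In complex 68 H2AC4, H2AC7 and H3C13 had 8, 5 and 7 counts.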
